A study of Mus musculus with 168 samples.

Results

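The control cortex of a Huntington's disease mouse study was compared between 2 and 10 months of age. The 32 libraries, of 168 in the series, are those titled Q20 or WT at these ages, 16 at 2 months and 16 at 10 months, with 8 mice of each genotype and age. Q20 mice are heterozygous for a knock-in allele of *Htt*, the mouse huntingtin gene, that carries 20 CAG repeats, and WT mice are their wild type littermates, with 7 repeats. Both genotypes serve as unaffected controls in the study, and sires of the Q20 line were crossed with C57BL/6J females. Small RNA from the cortex was sequenced, and the counts are per microRNA precursor locus, so the arms of a precursor are not distinguished.

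Age could not be separated from sequencing. Per the labels, 4 library codes make up the 32 libraries, each shared by 8 mice of both genotypes, and no code holds both ages. At each age 1 code goes with females and 1 with males, except that 1 library titled female at 10 months carries the code of the males. Sex in the tests below is that of the code. The 2-month libraries ran on lanes numbered 1, 2, 3 and 7 and the 10-month libraries on lanes 6, 7 and 8. In 1 pair the same lane number and barcode occur at both ages, so lane 7 of the 2 ages cannot be the same run. Age, code and lane therefore cannot be told apart, and the Q20 and the WT comparison, although made in different mice, share the codes and the lanes. The term "age difference" below is used with this limit. Library totals ran from 4505007 to 5656051 counts at 2 months (median 5048446) and from 2041741 to 5223075 at 10 months (median 4592349).

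MicroRNAs are short RNAs, cut from hairpin precursors, that guide Argonaute proteins to messenger RNAs. Bases 2 to 8 of the mature strand, the seed, largely set which messengers pair with it, so microRNAs with one seed are treated as a family. In the cortex some families are best known from neurons (Mir9, Mir124, Mir128), some from oligodendrocytes (Mir219, Mir338), and some from vessels, blood or ciliated and secretory epithelium. Many microRNAs exist as near-identical copies at several loci, whose reads were divided by the estimation of counts, so values of single copies are less certain than those of a family. In whole tissue, fewer cells of a type and less RNA per cell cannot be told apart.

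Mature sequences of loci with age differences are given here from RefSeq, build GRCm38.p6, written 5′ to 3′, with the seed in capitals. The counts are per precursor locus, so the difference of a single mature strand was not measured. The first lines show the Mir29 family, which shares 1 seed over its 4 loci, and Mir30c, Mir219a and Mir15a. Their loci were higher at 10 months, except that of the 2 loci of Mir219a only Mir219a-2 passed the test.
mmu-miR-29a-3p: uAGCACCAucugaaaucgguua
mmu-miR-29b-3p: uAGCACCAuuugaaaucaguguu
mmu-miR-29c-3p: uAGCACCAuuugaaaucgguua
mmu-miR-30c-5p: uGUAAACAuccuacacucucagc
mmu-miR-219a-5p: uGAUUGUCcaaacgcaauucu
mmu-miR-15a-5p: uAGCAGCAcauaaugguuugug
The next lines show microRNAs that were lower at 10 months. The copies of miR-7 share a seed across loci on 3 chromosomes.
mmu-miR-7a-5p: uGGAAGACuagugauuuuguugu
mmu-miR-7b-5p: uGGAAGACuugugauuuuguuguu
mmu-miR-92b-3p: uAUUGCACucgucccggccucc
mmu-miR-296-5p: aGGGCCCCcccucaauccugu
mmu-miR-298-5p: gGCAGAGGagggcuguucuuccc
mmu-miR-148a-3p: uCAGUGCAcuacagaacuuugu
The last lines show members of the Mir200 family, in which miR-141 shares a different seed with miR-200a, and miR-182. Their levels set some 2-month libraries apart.
mmu-miR-200b-3p: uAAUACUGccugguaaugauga
mmu-miR-200c-3p: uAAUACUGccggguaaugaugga
mmu-miR-429-3p: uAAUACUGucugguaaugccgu
mmu-miR-141-3p: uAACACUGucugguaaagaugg
mmu-miR-182-5p: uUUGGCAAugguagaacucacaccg

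The microRNA content of control cortex was concentrated in few loci. Of all counts, 99.1% lay on transcripts annotated as microRNAs, 1028 of which had at least 1 count in these libraries and 292 of which averaged at least 10 CPM (counts scaled to a common library size with TMM factors). The 9 most abundant loci held 50% of all counts and 60 loci held 90%. The top 10 loci took 53.4% ± 0.96 of a library (SD, n = 32 mice), with a range of 50.8% to 55.4%. These shares count reads of precursors whose mature strands have nearly equal lengths, and the efficiency with which each strand enters a library was not measured.

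Over both ages Mir181a-2 was the most abundant locus, with 9.8% ± 0.65 of all counts (SD, n = 32). It was followed by Mir127, an imprinted microRNA of the Dlk1-Dio3 region, with 9.01% ± 1.2. At 2 months Mir127 came first, with a mean of 9.91% beside 9.78% for Mir181a-2, a gap within the SD between mice, and at 10 months Mir181a-2 came first, with 9.83% beside 8.11%. Next over both ages was Mir26a-2 with 8.57% ± 0.46. Mir22 held 6.31% ± 0.38, Mir9-2, a microRNA of neural progenitors and neurons, 4.03% ± 0.4, and Mir434, also of the Dlk1-Dio3 region, 4.01% ± 0.43. Next came Mir30a with 3.95% ± 0.29, the neuronal Mir128-1 with 3.39% ± 0.5, Mir27b with 2.22% ± 0.13, and Mirlet7f-2, of the let-7 family that accumulates as cells differentiate, with 2.12% ± 0.16. Mir29a, Mir125a, Mir30d and Mir30c-2 lay between 1.49% and 2.11%. Neighbours in this order often overlapped over the mice, as for Mir9-2, Mir434 and Mir30a.

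**Figure D1:**
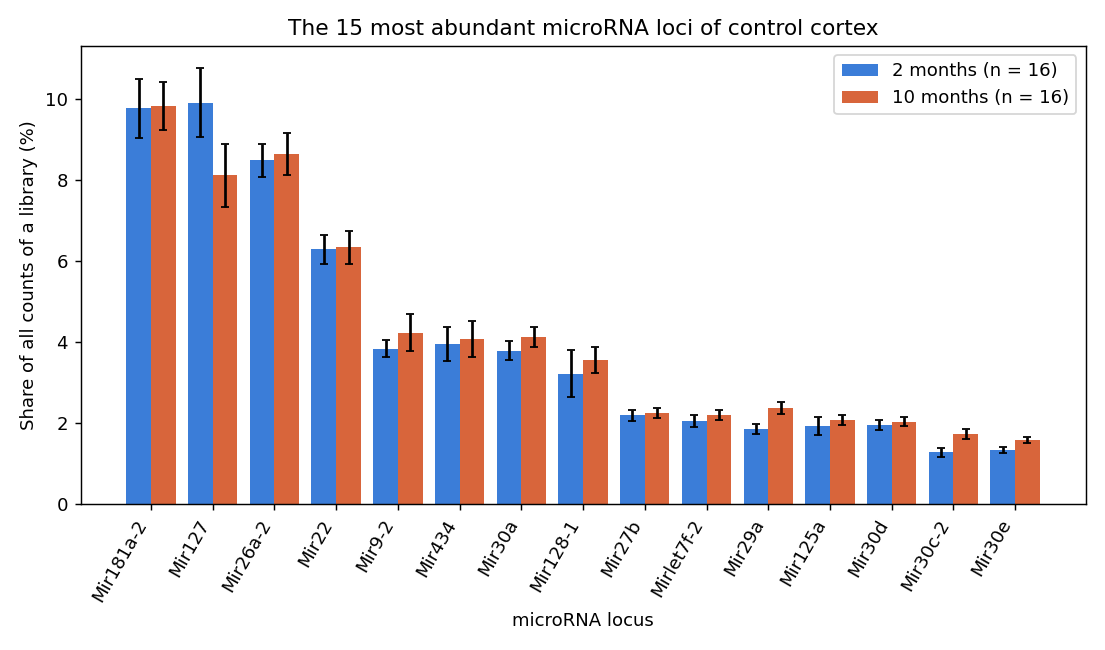
Mean share of all counts (y axis, percent of a library's counts) of the 15 most abundant microRNA loci (x axis) in 16 control mice at 2 months (blue) and 16 at 10 months (orange), with bars for the SD between mice. The order is similar at both ages, Mir127 is lower and Mir29a and Mir30c-2 are higher at 10 months.

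By family, the Dlk1-Dio3 region of chromosome 12, an imprinted domain that holds one of the largest mammalian microRNA clusters, took 18.2% of counts (SD 1.43). Loci on the neuronal list took 12.5% (SD 0.70), the Mir181 family 11.98% (SD 0.73), the Mir30 family 9.35% (SD 0.75) and the let-7 family with Mir98 6.96% (SD 0.41). The summed neuronal list ran from 110602 to 140647 CPM over the 32 libraries, so neuronal microRNAs were abundant in every library of this tissue. The liver marker and most markers of muscle were low. Mir122, which defines liver, ran from 0.212 to 9.78 CPM over the 32 libraries. Of the 9 transcripts on the skeletal and heart muscle list 7 averaged under 10 CPM. The sum of all 9 ran from 173 to 247 CPM at 2 months and from 251 to 351 CPM at 10 months, without overlap. The choroid plexus and ciliated cell list summed to 3793 to 5180 CPM at 2 months and to 3528 to 14581 CPM at 10 months, where 1 Q20 library was highest and the next had 9264 CPM.

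Some 2-month libraries stood apart in 1 group of microRNAs. Mir200a, Mir200b, Mir200c, Mir141 and Mir429, known from epithelia and olfactory neurons, and Mir96, Mir182 and Mir183, known from sensory cells, are together under 1% of counts on average. Their summed level ran from 272 to 32803 CPM at 2 months (median 12711) and from 363 to 1785 CPM at 10 months (median 630). In 9 of the 16 2-month libraries, 6 of them Q20 and 3 WT, the sum was between 12281 and 32803 CPM, and the 7 other 2-month libraries ran from 272 to 9471 CPM. The 8 members were all lower at 10 months in the pooled test, beside 23.2% of all tested microRNAs. Their log2 differences ran from −4.97 (Mir200c) to −3.17 (Mir200b). Without the 9 libraries the differences shrank to between −2.54 and −1.10, 7 of the 8 still passed the test, and Mir96 did not (adjusted p = 0.052). The 7 remaining 2-month libraries had a median sum of 932 CPM. The 9 libraries are those above 10 times the median sum of all 32 libraries (1117 CPM), so they were left out by the values tested here, and these smaller differences are a description. Whether these libraries hold tissue other than cortex was not tested.

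**Figure D2:**
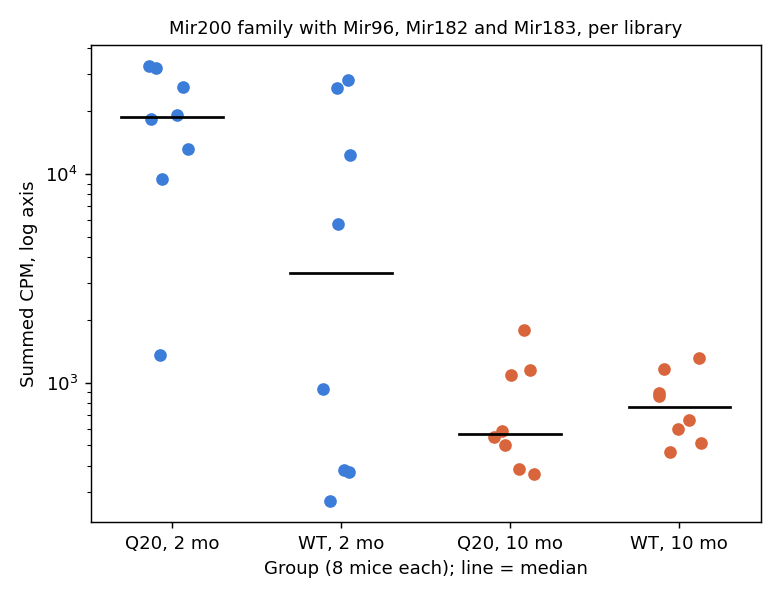
Summed level of Mir200a, Mir200b, Mir200c, Mir141, Mir429, Mir96, Mir182 and Mir183 in each library (y axis, CPM, log scale) for 8 Q20 and 8 WT mice at 2 and at 10 months (x axis), with a line at the median. The 2-month libraries span from 272 to 32803 CPM and the 10-month libraries from 363 to 1785 CPM.

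The pooled age comparison asked which microRNAs differ between young and older adult control mice. Of 328 microRNAs tested (those listed in the study's tissue-interaction table, with at least 1 count), 162 passed an FDR of 0.05 (49.4% of those tested), 86 higher at 10 months (26.2%) and 76 lower (23.2%). An unadjusted p under 0.05 was found for 183. Scaling by library size alone gave 60 higher and 101 lower, a split of 37.3% higher against 53.1% by TMM, with the median log2 difference of all microRNAs shifted from 0.00 to -0.07, so small differences in either direction depend on the scaling. Most differences were modest: the median absolute log2 difference of the 162 was 0.31, 118 were under 0.5 and 20 were at least 1, of which 18 were lower at 10 months, 8 of them the members of the Mir200 group. At 11 microRNAs the 16 values at one age did not overlap the 16 at the other, and all 11 averaged at least 10 CPM. Without the 9 libraries high in the Mir200 family 115 of 327 passed, and 110 of those were among the 162.

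The test was repeated in each control genotype, in separate mice. In Q20 mice 123 of 327 passed (37.6%), 57 higher (17.4%) and 66 lower (20.2%), and in WT mice 109 of 325 (33.5%), 47 higher (14.5%) and 62 lower (19.1%). Passing in both with the same sign were 81, which is 65.9% of the Q20 and 74.3% of the WT calls, and 0 passed with opposite signs. Over the 324 microRNAs tested in both, 121 of the 123 had the same sign in WT mice, and the log2 differences correlated with r = 0.87 (Spearman 0.73). Among the 221 microRNAs with at least 10 CPM all 100 that passed in Q20 mice had the same sign in WT mice. There the correlation across microRNAs was r = 0.98 (Spearman 0.86, n = 221), where the points share libraries of the same codes and lanes. The 8 members of the Mir200 group, with their large differences, are among the 221. A test of whether the age difference differed between Q20 and WT mice gave 0 of 328 at FDR 0.05 by edgeR's quasi-likelihood test and 0 by DESeq2, and 18 had an unadjusted p under 0.05. The genotypes themselves differed at 0 of 328 over both ages (16 at an unadjusted p under 0.05, and 0 by DESeq2).

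**Figure D3:**
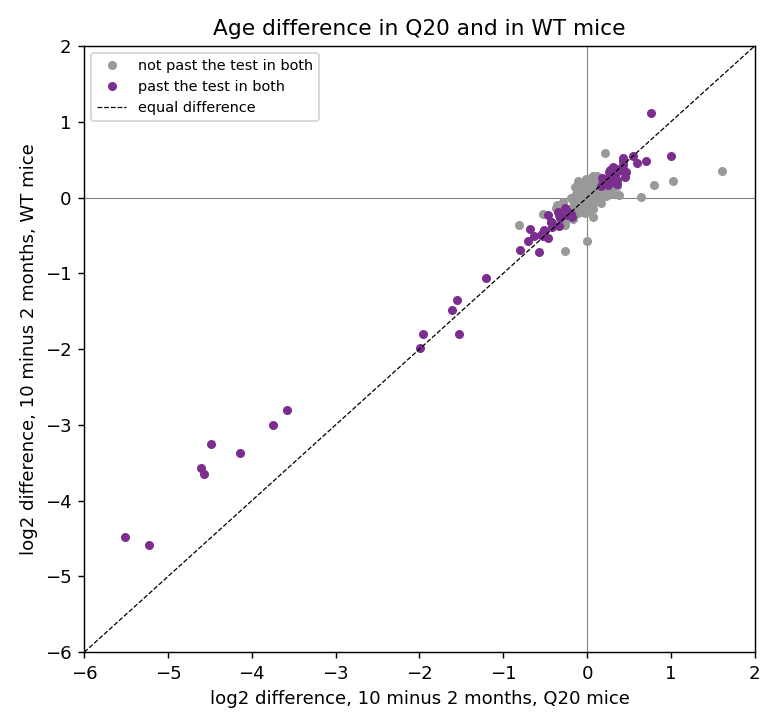
Log2 difference between 10 and 2 months in Q20 mice (x axis) and in WT mice (y axis) for the 221 microRNAs of at least 10 CPM, with the dashed line of equal difference. Purple points passed an FDR of 0.05 in both (71 microRNAs), and lie on one side of zero on both axes.

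Mice of other lines, with other library codes, were set beside the controls. In the Q80, Q92 and Q111 mice at the same ages 186 of 326 passed (57.1%), 89 higher (27.3%) and 97 lower (29.8%), and 151 of the 162 microRNAs of the control comparison passed there with the same sign, with 0 opposite. These lines carry expanded CAG repeats, whose part in the age difference was not tested here, and no library code holds both ages there either.

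Among the microRNAs higher at 10 months, Mir29a had the smallest p. It ran from 16135 to 19916 CPM at 2 months, with a median of 18095, and from 20403 to 26864 CPM at 10 months, with a median of 24692 with 16 mice at each age, and the ages did not overlap (log2 difference 0.43, SE 0.033, adjusted p = 1.7e-12). The Mir29 family, which rises after birth in the brain and targets pro-apoptotic and matrix genes, includes Mir29b-1 next to Mir29a on chromosome 6. Mir29b-1 ran from 73.5 to 154 CPM at 2 months, with a median of 116, and from 102 to 235 CPM at 10 months, with a median of 175 (log2 difference 0.58, SE 0.095, adjusted p = 4.8e-06), with overlap between the ages. Mir29c and Mir29b-2, on chromosome 1, lie outside the tested set and were taken from the fit over all annotated microRNAs. There Mir29c ran from 1865 to 2550.4 CPM at 2 months, with a median of 2053, and from 2474 to 3358 CPM at 10 months, with a median of 3018 (log2 difference 0.49, SE 0.046, adjusted p = 3.7e-11), and Mir29b-2 differed by 0.47 (SE 0.046, adjusted p = 1.3e-10). All 4 loci were higher at 10 months in Q20 and in WT mice, and the family sum rose from a median of 20865 to 28724 CPM.

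Members of the Mir30 family, known from adipose, heart and brain, were next. Mir30c-2 ran from 10469.9 to 14288 CPM at 2 months, with a median of 12458, and from 14567 to 20968 CPM at 10 months, with a median of 17148 without overlap between the ages (log2 difference 0.51, SE 0.042, adjusted p = 6.7e-12). Mir30b ran from 2724 to 3851 CPM at 2 months, with a median of 3101, and from 3591 to 5397 CPM at 10 months, with a median of 4447 (log2 difference 0.49, SE 0.050, adjusted p = 7.3e-10), with a small overlap. All 5 tested members of this family were higher at 10 months, beside 26.2% of all tested microRNAs. Mir30a (log2 difference 0.19, SE 0.037, adjusted p = 4.2e-05) and Mir30d (log2 difference 0.13, SE 0.033, adjusted p = 0.00104) had smaller differences. The median of the family was 0.19 beside 0.00 over all tested microRNAs. With scaling by library size alone 3 of the 5 passed, and Mir30d, with a log2 difference of 0.06, did not.

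Mir219a-2, which promotes oligodendrocyte maturation, ran from 384 to 509 CPM at 2 months, with a median of 446, and from 542 to 692 CPM at 10 months, with a median of 611, without overlap (log2 difference 0.46, SE 0.039, adjusted p = 8.8e-12). An antisense microRNA, Mir219b, overlaps this locus. The study's sequencing was strand-specific, and the strand setting of the counting is not given in the sources used here. The other oligodendrocyte microRNA of high level, Mir338, is outside the tested set, and rose from a median of 3149 to 4061 CPM in the fit over all annotated microRNAs (log2 difference 0.38, SE 0.046, adjusted p = 1.7e-08). The log2 difference of Mir219a-2 was 0.43 in Q20 and 0.43 in WT mice. Mir219a-1, the other locus of miR-219a-5p, averaged under 10 CPM and did not pass.

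Other rising microRNAs were of moderate level. Mir93, in an intron of *Mcm7*, ran from 355 to 459 CPM at 2 months, with a median of 409, and from 473 to 574 CPM at 10 months, with a median of 520.5, without overlap (log2 difference 0.33, SE 0.034, adjusted p = 7.9e-10). Mir15a, a repressor of the cell cycle and of *Bcl2*, ran from 391 to 499 CPM at 2 months, with a median of 446, and from 429 to 652.2 CPM at 10 months, with a median of 597 (log2 difference 0.40, SE 0.044, adjusted p = 3.7e-09). Mir203 ran from 94.4 to 142 CPM at 2 months, with a median of 115, and from 139.9 to 180.4 CPM at 10 months, with a median of 155, with 1.35-fold levels (log2 difference 0.43, SE 0.049, adjusted p = 9.0e-09). Mir33, in an intron of *Srebf2* and a repressor of cholesterol export, ran from 22.5 to 34.7 CPM at 2 months, with a median of 27.7, and from 34.4 to 57.2 CPM at 10 months, with a median of 39.5 (log2 difference 0.56, SE 0.071, adjusted p = 7.5e-08). Mir193a showed the largest rise of the 10 named here at a low level, from 10.0 to 32.3 CPM at 2 months, with a median of 15.8, and from 14.8 to 43.0 CPM at 10 months, with a median of 32.8 (log2 difference 0.97, SE 0.13, adjusted p = 1.5e-07), and the 10-month values overlapped the 2-month ones. Mir674 rose from a median of 322 to 393 CPM (log2 difference 0.27, SE 0.037, adjusted p = 2.6e-07).

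The falls with the smallest p were those of Mir187, Mir296 and Mir298. Mir187 ran from 95.3 to 162 CPM at 2 months, with a median of 126, and from 22.2 to 57.6 CPM at 10 months, with a median of 31.3, so the highest 10-month value lay below the lowest 2-month value (log2 difference -1.95, SE 0.100, adjusted p = 8.4e-17). Its difference was -1.99 in Q20 and -1.98 in WT mice. Mir296 and Mir298 lie side by side in the imprinted *Gnas* domain of chromosome 2 (Mir298 at chr2:174267512-174267535 of GRCm38.p6 for miR-298-3p). Mir296 ran from 43.3 to 63.2 CPM at 2 months, with a median of 52.3, and from 10.9 to 28.2 CPM at 10 months, with a median of 17.3, without overlap (log2 difference -1.62, SE 0.096, adjusted p = 1.3e-15), and Mir298 from 349.9 to 756 CPM at 2 months, with a median of 503, and from 121 to 290.2 CPM at 10 months, with a median of 172, also without overlap (log2 difference -1.51, SE 0.12, adjusted p = 6.6e-12).

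Mir7-2, one of 3 loci of miR-7, a microRNA of neuroendocrine cells and neurons that pairs with the circular RNA Cdr1as, ran from 46.3 to 76.5 CPM at 2 months, with a median of 60.1, and from 15.1 to 48.6 CPM at 10 months, with a median of 20.5 (log2 difference -1.41, SE 0.14, adjusted p = 7.3e-10). The other loci fell less: Mir7b by log2 difference -0.44 (SE 0.060, adjusted p = 2.6e-07) and Mir7-1 by -0.20 (SE 0.040, adjusted p = 7.6e-05). Mir7-1 and Mir7-2 make the same mature miR-7a, so the division of reads between them is uncertain. Mir375 of the same list did not pass (log2 difference -0.62, adjusted p = 0.0709), and 2 of its 2-month libraries had 333 and 733 CPM when the others had 73.0 to 112 CPM.

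The remaining 6 of the 10 falling microRNAs with the smallest p had smaller differences, from -0.71 to -0.34 on the log2 scale. Mir92b, best known from neural progenitors, ran from 6624 to 8500.2 CPM at 2 months, with a median of 7439, and from 4507 to 6417 CPM at 10 months, with a median of 5368, without overlap (log2 difference -0.48, SE 0.043, adjusted p = 3.4e-11), while Mir92-2 of the same seed differed by -0.12 (adjusted p = 0.0354). Mir148a ran from 1762 to 2456 CPM at 2 months, with a median of 2199, and from 1160.2 to 2101 CPM at 10 months, with a median of 1405 (log2 difference -0.61, SE 0.063, adjusted p = 9.9e-10). Mir3099 ran from 50.3 to 72.1 CPM at 2 months, with a median of 61.4, and from 29.4 to 44.2 CPM at 10 months, with a median of 37.2, without overlap (log2 difference -0.71, SE 0.061, adjusted p = 1.1e-11). Mir3059 and Mir676 fell from medians of 236 and 374 to 174 and 263 CPM, with log2 differences of -0.46 and -0.49. Mir673, of the Dlk1-Dio3 region, ran from 215 to 265 CPM at 2 months, with a median of 238, and from 159 to 207 CPM at 10 months, with a median of 188, without overlap (log2 difference -0.34, SE 0.039, adjusted p = 8.3e-09).

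**Figure D4:**
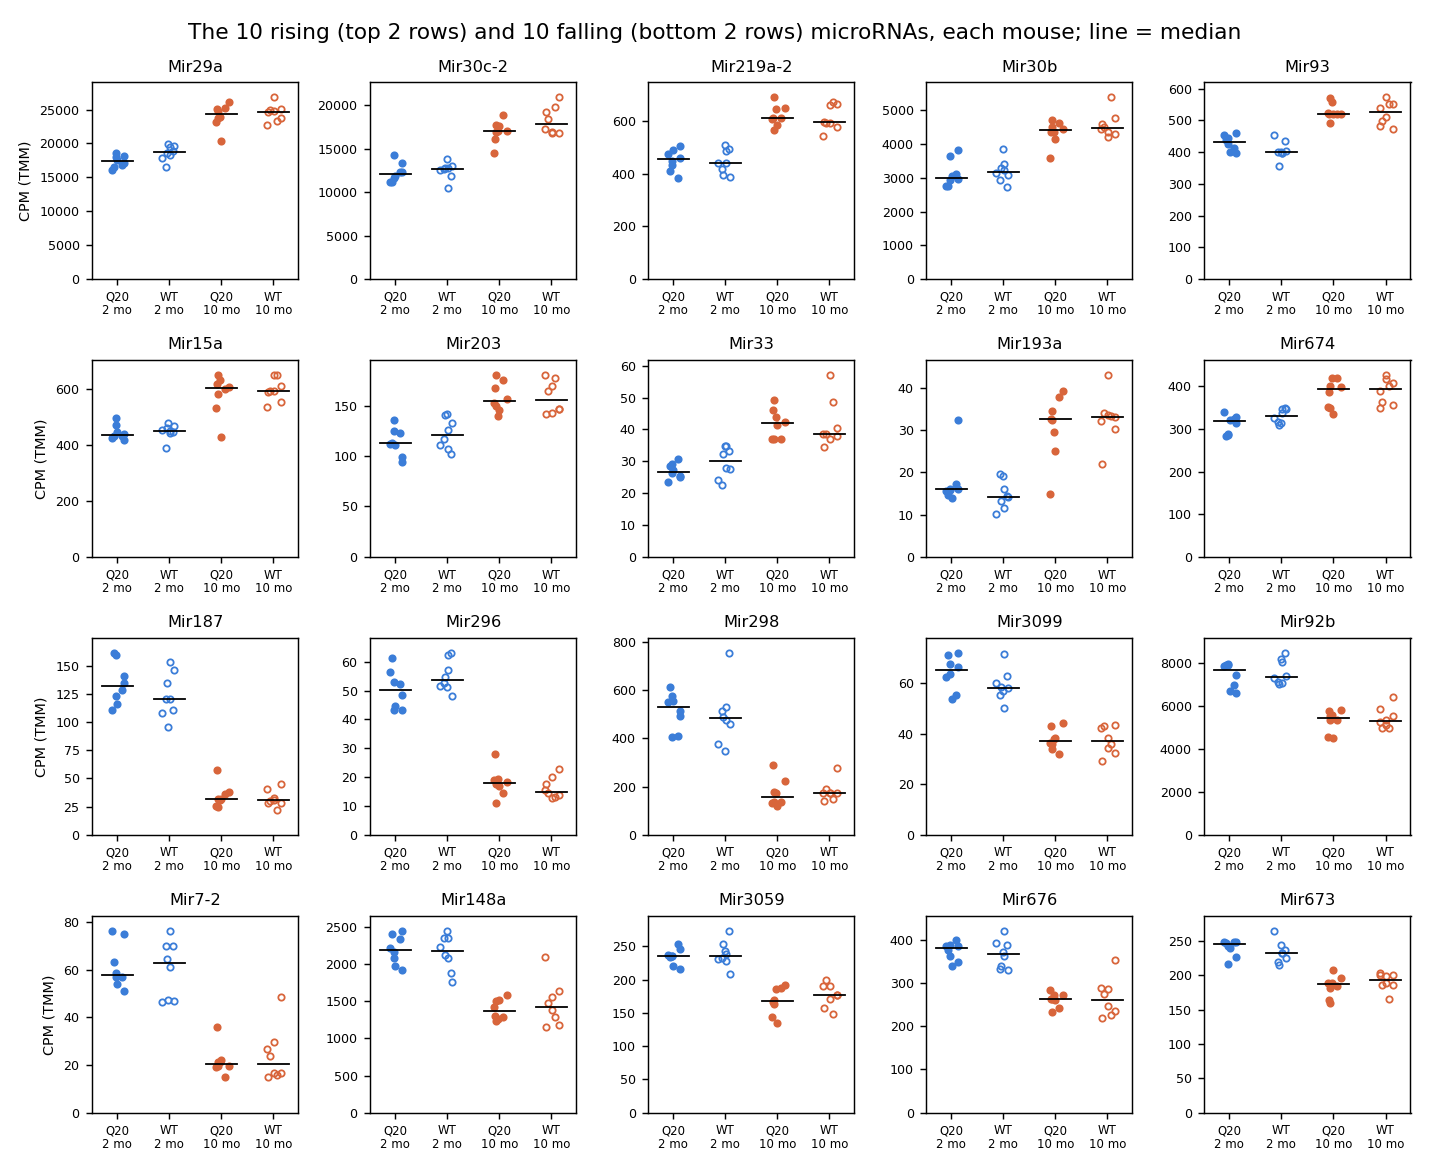
Level of the 10 rising and the 10 falling microRNAs with the smallest p in each of 32 mice (y axis, TMM-normalized CPM, from 0) by genotype and age (x axis, 8 mice per group), with a line at the median. Filled points are Q20 and open points WT mice. Mir187, Mir296, Mir298, Mir3099, Mir92b, Mir3059 and Mir673 do not overlap between the ages, nor do Mir29a, Mir30c-2, Mir219a-2 and Mir93.

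Lists of microRNAs by cell type and family, chosen with earlier results known, differed in how many members passed. Over all 328 tested microRNAs, 26.2% were higher and 23.2% lower, and the counts below stand beside these shares. On the neuronal list 10 of 18 tested members were higher at 10 months (beside 26.2% of all), 0 were lower (beside 23.2%) and 8 did not pass, with a median log2 difference of 0.15. Mir9-3 (log2 difference 0.44, SE 0.059, adjusted p = 2.6e-07) and Mir137 (log2 difference 0.16, SE 0.033, adjusted p = 1.4e-04) were among them, and Mir9-2, the most abundant, differed by 0.21 (SE 0.045, adjusted p = 2.5e-04). In WT mice alone Mir9-2 (log2 difference 0.12, adjusted p = 0.0911) and Mir137 (log2 difference 0.10, adjusted p = 0.125) did not pass. With scaling by library size alone 4 members were higher and 1 lower (median log2 difference 0.08). In the male codes 2 were higher and 0 lower (median 0.08), and in the female codes 8 and 1 (median 0.18). Without the 9 libraries 6 were higher and 1 lower (median 0.16). These last 3 fits hold fewer mice and called fewer of all microRNAs, so the count depends on scaling and on the set and number of mice.

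The let-7 family had 5 of 8 members higher (beside 26.2% of all) and 0 lower, with differences up to 0.19 (Mirlet7g, adjusted p = 1.3e-04), and Mirlet7f-2 and Mirlet7a-1 at 0.17 and 0.14. In WT mice alone, Mirlet7g, Mirlet7f-2 and Mirlet7a-1 did not pass, though the difference between genotypes was itself past the test for 0 microRNAs (log2 differences in WT mice 0.10, 0.08 and 0.05), and with scaling by library size alone 2 of the 8 passed. In the male codes alone 0 of the 8 passed, and in the female codes 3. Of the 6 members of the Mir99, Mir100 and Mir125 list, which share clusters with let-7, 4 were higher (beside 26.2% of all), and 2 without the 9 libraries. Mir100 differed by 0.39 (SE 0.068, adjusted p = 1.0e-05) and Mir99a by 0.21, and Mir125b-2 by 0.21, which was no longer past the test without the 9 libraries.

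The 36 tested loci of the Dlk1-Dio3 region went both ways, with 12 lower (beside 23.2% of all), 4 higher (beside 26.2%) and 20 not past the test, and a median log2 difference of -0.06. With scaling by library size alone 19 were lower and 4 higher. Mir540 fell (log2 difference -0.34, SE 0.056, adjusted p = 4.7e-06) like its neighbour Mir673, and Mir154 rose (log2 difference 0.25, SE 0.041, adjusted p = 4.3e-06). Mir127, the most abundant locus of the region and outside the tested set, fell from a median of 94103 to 80727 CPM (log2 difference -0.24, SE 0.049, adjusted p = 1.4e-04), while Mir434, 1 locus further, did not pass (log2 difference 0.09, adjusted p = 0.317).

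Of 13 tested members of the Mir17-92 cluster and its paralogs, which promote proliferation, 3 were higher, 4 lower and 6 did not pass, near the 26.2% and 23.2% of all tested microRNAs. Without the 9 libraries 3 were higher and 0 lower. Mir93 and Mir106b, in 1 host gene on chromosome 5, were higher (Mir106b: log2 difference 0.20, SE 0.037, adjusted p = 3.0e-05), and Mir25 of the same host did not pass (log2 difference 0.04, adjusted p = 0.531). Mir17, on chromosome 14, was lower (log2 difference -0.18, SE 0.048, adjusted p = 0.00159). In the female codes and without the 9 libraries Mir17 did not pass. Of the 6 members of the Mir181 family 3 were higher and 1 lower, with Mir181b-2 higher (log2 difference 0.39, SE 0.058, adjusted p = 1.3e-06), Mir181d lower (log2 difference -0.17, SE 0.038, adjusted p = 3.1e-04) and Mir181a-2, the most abundant, not past the test (log2 difference 0.08, adjusted p = 0.137). Of the Mir15, Mir16, Mir195 and Mir497 list, Mir15a rose and Mir15b was lower (log2 difference -0.19, adjusted p = 0.022), and Mir15b did not pass in the female codes or without the 9 libraries.

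Cell types other than neurons gave mixed counts. Mir143, of vascular smooth muscle, was lower (log2 difference -0.44, SE 0.077, adjusted p = 1.4e-05) but did not pass in the male codes alone, while Mir145a, from the same transcript, did not pass (log2 difference -0.04, adjusted p = 0.72). On the microglia and inflammation list 1 of 4 tested members was higher (beside 26.2% of all) and 1 lower (beside 23.2%). Mir155, under 10 CPM on average, was higher (log2 difference 0.48, SE 0.15, adjusted p = 0.0061) and Mir146 lower (log2 difference -0.27, SE 0.097, adjusted p = 0.0194). Mir155 did not pass in either sex alone. Mir146 did not pass in the female codes (log2 difference -0.03, beside -0.55 in the male codes), with the replicate block, without lane 7 at 2 months or without the 9 libraries. Mir21a, outside the tested set, rose from a median of 1755 to 2503 CPM, without overlap (log2 difference 0.48, SE 0.040, adjusted p = 2.9e-12). Mir142b and Mir223 of this list, also outside the tested set, did not pass (log2 differences 0.04 and 0.05, adjusted p = 0.649 and 0.839). Among erythrocyte microRNAs Mir144 was higher (log2 difference 0.29, SE 0.088, adjusted p = 0.00603), though not past the test in the female codes, and outside the tested set Mir451a was higher (log2 difference 0.34, SE 0.062, adjusted p = 4.0e-05) and Mir486 lower (log2 difference -0.47, SE 0.052, adjusted p = 1.6e-09). Mir34a, a p53 target, was higher (log2 difference 0.35, SE 0.061, adjusted p = 1.2e-05).

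The choroid plexus and ciliated cell list went both ways, with 5 of 11 tested members higher (beside 26.2% of all) and 5 lower (beside 23.2%). The 5 higher became 3 with RLE scaling, with library size alone and in the fit over all annotated microRNAs, and 2 without the 9 libraries, and the number lower was 5 in each of these fits. Mir34b, with Mir34c a pair of multiciliated cells, was higher (log2 difference 0.81, SE 0.13, adjusted p = 6.9e-06) and Mir211, at a low level, lower (log2 difference -0.93, SE 0.14, adjusted p = 1.4e-06), with Mir764 lower as well (log2 difference -0.54, SE 0.10, adjusted p = 4.8e-05). Mir204, the most abundant of the list, ran from 2781 to 4027 CPM at 2 months, with a median of 3402, and from 2562 to 11555 CPM at 10 months, with a median of 3772 (log2 difference 0.37, SE 0.15, adjusted p = 0.0482). Mir204 missed the threshold in 19 of 32 fits that each left out 1 library, with log2 differences from 0.24 to 0.41.

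Most microRNAs on the muscle list were low. The 2 on the muscle list above 10 CPM lie outside the tested set and were higher in the fit over all annotated microRNAs. Mir133a-1 rose from a median of 181 to 266 CPM without overlap (log2 difference 0.54, SE 0.053, adjusted p = 9.8e-11), and Mir1a-1 from 9.94 to 13.1 CPM (log2 difference 0.37, SE 0.099, adjusted p = 0.00425). In that fit 3 of the 9 were higher (beside 10.2% of all loci) and 0 lower (beside 10.7%), and 7 of the 9 averaged under 10 CPM. In the tested set Mir499 of heart and slow muscle was higher (log2 difference 0.66, SE 0.12, adjusted p = 1.7e-05) and Mir208b, also of muscle, lower (log2 difference -0.57, SE 0.21, adjusted p = 0.0222), with medians under 10 CPM at both ages. Mir208b did not pass over all annotated microRNAs, over all transcripts, in the female codes, with the replicate block or without the 9 libraries. Mir10b, from a Hox cluster, was lower, with a median of 166 CPM at 10 months (log2 difference -0.60, SE 0.12, adjusted p = 1.2e-04), and did not pass in the male codes. Of the large Sfmbt2 cluster of rodent microRNAs, Mir467d was the 1 tested locus and was lower (log2 difference -0.60, SE 0.11, adjusted p = 1.3e-05), and 9 of 49 of its loci passed as lower in the fit over all annotated microRNAs, where 10.7% of all loci did. Of the 68 loci of this cluster 67 averaged under 10 CPM. The sum of the cluster had a median of 77.8 CPM at 2 months and 50.3 CPM at 10 months.

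**Figure D5:**
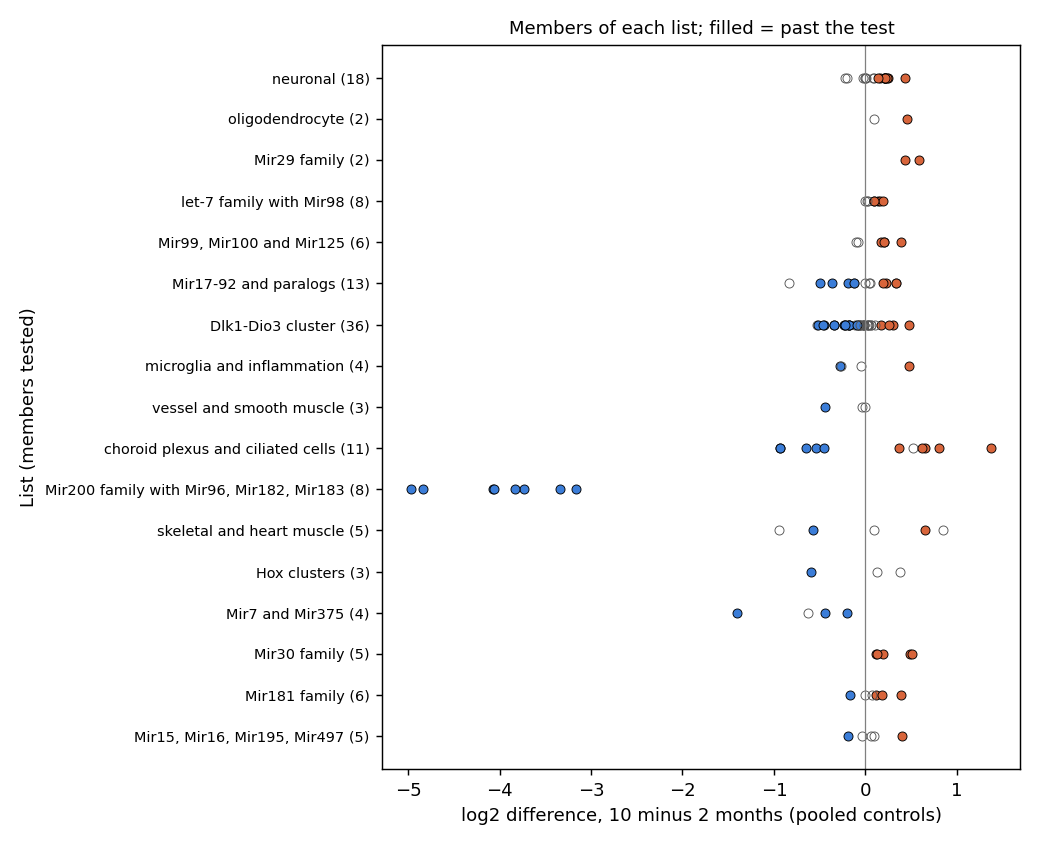
Log2 difference between 10 and 2 months (x axis) for each tested member of the lists with at least 2 tested members (y axis, number tested in parentheses). Filled points passed an FDR of 0.05, orange higher and blue lower at 10 months, and open points did not.

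Outside the tested set, 71 annotated loci averaged at least 10 CPM, and 45 passed in the fit over all 1023 annotated microRNAs, where 213 passed (20.8%), 104 higher (10.2%) and 109 lower (10.7%). Most of the 1023 averaged under 10 CPM. The 45 of 71 stand beside 137 of the 221 tested microRNAs of at least 10 CPM, a similar share. Of the 45, 25 were higher and 20 lower. Mir101a ran from 4154 to 6431 CPM at 2 months, with a median of 5323, and from 6835 to 8216 CPM at 10 months, with a median of 7528, without overlap (log2 difference 0.48, SE 0.051, adjusted p = 1.2e-09). Mir30e was also higher (log2 difference 0.28, SE 0.035, adjusted p = 3.8e-08).

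The sexes were also compared for the age difference, each sex and age being a single code. A test of the difference between females and males found 1 of 328 (0.305%), with 26 at an unadjusted p under 0.05. This was Mir381, of the Dlk1-Dio3 region, which fell in females from a mean of 4823 CPM (SD 411, n = 8) to 3662 CPM (SD 251, n = 8) and in males was 4135 CPM (SD 572) and 4280 CPM (SD 264). The log2 difference in males minus that in females was 0.45 (SE 0.095, adjusted p = 0.0153), and alternatives gave between 0 and 4 calls. Within the female codes 126 of 326 microRNAs passed and within the male codes 114 of 326, 81 in both with the same sign and 1 with opposite signs. That was Mir16-2, singled out after its values were seen, with a log2 difference of 0.28 in females and -0.37 in males.

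Lane differences within an age were fewer, in fits of 16 libraries beside 32 for age, so these counts do not compare the sizes of the differences. At 2 months lanes 3 and 7 held 2 libraries each, all female on lane 3 and all male on lane 7. At 2 months 5 of 326 microRNAs differed between lanes (1.53%): Mir218-1, Mir122, Mir128-1, Mir501 and Mir153. An unadjusted p under 0.05 was found for 40. Mir122, the liver microRNA, had 5.67 to 8.83 CPM in the 2 libraries of lane 3 and at most 1.43 CPM in the others, and at 10 months it had 6.42 to 9.78 CPM in the 5 libraries of lane 8 and at most 2.27 CPM in the others. At 10 months Mir122 was the only 1 of 325 to pass (0.308%), with 29 at an unadjusted p under 0.05. Of the 5 at 2 months, 2 also passed for age, Mir218-1 (log2 difference 0.23, SE 0.075, adjusted p = 0.00912) and Mir128-1 (log2 difference 0.22, SE 0.071, adjusted p = 0.0106), and Mir128-1 ran from 40985 to 47451 CPM in lane 7 and from 26341 to 41100 CPM in the others at 2 months. Lane effects between the ages were not testable.

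Values at 6 months did not always lie between those of 2 and 10 months. Levels were normalized jointly over 2, 6 and 10 months for this description. Of the 20 named rising and falling microRNAs, the 6-month median lay between the medians of 2 and 10 months for 11 in WT and 8 in Q20 mice, and outside them in both genotypes for 8. Mir296 was at 16.1 CPM in WT and 17.4 CPM in Q20 mice at 6 months, close to its 10-month medians of 14.0 and 16.8 CPM. Mir30b, at 1482 and 1795 CPM, was below both other ages, and Mir148a, at 4759 and 2994 CPM, above them. The study's methods list no WT cortex at 6 months, and the 6-month libraries carry other codes or none, so these values are a description.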

How the data were processed

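Small RNA of mouse cortex was sequenced on an Illumina HiSeq2000 (36-base single-end reads). Per the methods, the authors clipped the reads, aligned them to mm10 with STAR and counted genes with HTSeq. The deposited table holds estimated counts per Ensembl transcript, not normalized (48.7% of non-zero control values are not whole), and these expected counts were rounded to whole numbers. The submitters' processing notes name CASAVA 1.8.2. A deposited FPKM table was not used.

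Transcripts were named with GENCODE M21 (GRCm38), which named 1228 of 1626. Of the 480 microRNA symbols in the study's S4 Table, 329 matched a transcript, and these hold 66.6% of control counts. Abundant loci outside it (Mir127, Mir22, Mir434, Mir27b) were taken from a fit over all 1023 annotated microRNAs tested, an alternative whose use for named loci was chosen after seeing the data. RefSeq held a mature sequence for 60 of 66 named loci.

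Tests used edgeR 4.0.16 in R 4.3.3 with TMM normalization, library totals over all transcripts, the robust two-sided quasi-likelihood F test and Benjamini-Hochberg adjustment over all microRNAs tested (FDR 0.05), with genotype and sex as covariates. SE is the coefficient over the root of its F. CPM are TMM-normalized. Sex was that of the library code, which differs from the labelled sex in 1 control library. Labels do not say how mice relate beyond this, and p-values measure the spread between mice. No 2 libraries of a group agreed within sampling noise. The scripts were first checked on simulated counts in which known genes were changed.

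The microRNAs named were the 10 with the highest share; the 10 rising and 10 falling with the smallest pooled p among those with at least 10 CPM that passed with the same sign in the pooled, Q20 and WT tests; up to 3 passing members per list by smallest p (or the most abundant); and the calls of the interaction, genotype and lane tests. The members and lists were chosen with earlier results of these data known. Microglial, seed and other loci outside the rule (Mir375, Mir204, Mir145a, Mir92-2, Mir25, Mir219a-1 and those outside the S4 Table) were named after their values were seen. Alternatives were RLE scaling, library size alone, DESeq2 1.42.0, filterByExpr, all transcripts, all annotated microRNAs, the labels' sex, no sex term, a replicate block, leaving out lanes or libraries, each sex alone and, added after seeing the data, fits without the lowest-total library or without the 9 libraries high in the Mir200 family.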

Additional observations from a re-analysis of the deposited data

Results flagged for a closer look

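In 264 sets of 8 mice (66 named microRNAs in 4 groups), the highest or lowest mouse lay far from the other 7 in 23, by Dixon's gap criterion at the 95% level. Chance gives about 1 in 20 sets. Mir122, Mir128-1 and Mir501 among them also differed between lanes. The flagged libraries of Mir122 were the only ones of their group on lane 3 (2 months) or lane 8 (10 months). That of Mir128-1 and Mir501 was the only one of its group on lane 7. Among Q20 10 month mice, Mir187 was at 57.6 CPM in female replicate 3 (24.7 to 38.0 in the other 7), Mir7-2 was at 36.01 CPM in female replicate 3 (15.2 to 21.9 in the other 7), Mir429 was at 161 CPM in female replicate 1 (67.6 to 105 in the other 7), Mir100 was at 4182 CPM in male replicate 1 (2619.8 to 3049.6 in the other 7) and Mir122 was at 7.30 CPM in male replicate 3 (0.588 to 2.27 in the other 7). Among WT 2 month mice, Mir298 was at 756 CPM in female replicate 3 (349.9 to 529.9 in the other 7), Mir15a was at 391 CPM in male replicate 3 (444 to 478 in the other 7), Mir143 was at 10894 CPM in male replicate 2 (13297 to 15436 in the other 7), Mir122 was at 8.83 CPM in female replicate 4 (0.378 to 1.43 in the other 7) and Mir181a-2 was at 108990.0 CPM in female replicate 2 (87230.2 to 97092 in the other 7). Among WT 10 month mice, Mir298 was at 277 CPM in male replicate 2 (141 to 189.6 in the other 7), Mir7-2 was at 48.6 CPM in male replicate 2 (15.1 to 29.6 in the other 7), Mir673 was at 165 CPM in female replicate 2 (185 to 203 in the other 7), Mir7b was at 65.6 CPM in male replicate 2 (41.6 to 51.6 in the other 7), Mir29b-1 was at 232 CPM in female replicate 1 (163 to 196 in the other 7), Mir106b was at 131 CPM in male replicate 3 (101 to 111 in the other 7), Mir181d was at 1075 CPM in male replicate 4 (868 to 939 in the other 7) and Mir146 was at 345 CPM in female replicate 2 (165 to 210.0 in the other 7). Among Q20 2 month mice, Mir193a was at 32.3 CPM in female replicate 2 (14.0 to 17.2 in the other 7), Mirlet7a-1 was at 9277 CPM in male replicate 1 (10472 to 10901 in the other 7), Mir128-1 was at 40985 CPM in male replicate 4 (26341 to 30599.6 in the other 7), Mir122 was at 5.67 CPM in female replicate 4 (0.212 to 1.25 in the other 7) and Mir501 was at 27.8 CPM in male replicate 4 (54.8 to 78.4 in the other 7). 

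The age difference of Mir381 differed between the sexes, by a log2 difference of 0.45 (males minus females, SE 0.095, adjusted p = 0.0153), and in the male codes alone it was 0.02. Each sex and age is a single library code, so sex and code cannot be told apart.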

How the results depend on the processing

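Counts of microRNAs past the test for age stayed within 1.5 times the reported number under 11 other settings in pooled mice (155 to 213). Some settings tested other numbers of microRNAs, and the share called was not as stable. The 213 were of 1023 annotated microRNAs (20.8%), beside 162 of 328 (49.4%) in the reported fit. Leaving out single libraries gave 154 to 166. Fits of fewer mice, added after seeing the data, gave 115 without the 9 libraries high in the Mir200 family, 126 in the female and 114 in the male codes. The age and genotype interaction and the genotype test stayed at 0. The age and sex count of 1 moved to 3 with RLE scaling, DESeq2, filterByExpr and the labels' sex, to 2 with library size alone and without lane 7 at 2 months, to 4 without the library whose sex differs and with the replicate block, and to 0 over all transcripts and over all annotated microRNAs. The 10 most abundant tested loci held 59.2% of the tested counts and 39.8% of counts on all annotated microRNAs. The difference of Mir381 changed sign in the male codes alone, at 0.0157. Of 990 values of named microRNAs under other settings than leaving out single libraries, 46 lost significance and 4 gained it. Same-numbered mice did not deviate together (correlations from -0.52 to 0.53 over 15 pairs, 4 of 15 closest to their own number), so the numbers pair no mice, and the replicate block gave 155 calls in pooled, 97 in Q20 and 79 in WT mice. The cause of these shifts was not tested. Counting error limits microRNAs of few counts, and age, code and lane remain inseparable.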
